A study of Homo sapiens with 8 samples.

Results

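Of the 153624 poly(A) peaks called in Kelly and Kelly E9R neuroblastoma cells, 5693 (3.71%) had their summit inside an internal coding exon. A peak was placed in this group when its summit lay in a coding segment of a protein-coding gene of GENCODE release 44. The segment could not belong to the first or last exon of the gene's longest-span basic transcript. Peaks within 200 bp before or 600 bp after the end of any basic transcript were left out. Only the position of a peak was used, not its strength or its sequence. When the ends of all annotated transcripts, and not those of the basic set alone, were used for the window, 3977 of the 5693 peaks remained. The peaks lay in 5473 different exons of 3166 genes, and 5446 of them in an exon of the longest-span transcript. In 93 cases the exon was the first or last exon of another transcript of the gene. Exons are numbered along the annotated transcript that holds the peak, so a number can differ from the one in common use.

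Kelly is an established neuroblastoma line in which MYCN is amplified. Kelly E9R is derived from it and has a point mutation in CDK12 at the cysteine bound by THZ531, a drug that covalently blocks CDK12 and CDK13. Both lines received DMSO or 400 nM THZ531 for 6 h as labelled, in duplicate, which gave 4 groups of 2 libraries. The study's methods give a lower THZ531 dose for these cells than the labels do. The E9R line arose under selection with a related inhibitor and is a single derived line. The peaks were called once on the merged reads of all 8 libraries, so no value below belongs to a condition, no value has a replicate, and THZ531 could not be compared with DMSO. Depth per library is unknown. The list gives no strand for any peak, so each peak was read on the strand of its gene. Reads from the opposite strand could not be told apart.

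An mRNA normally receives its poly(A) tail after cleavage some bases downstream of a hexamer, AATAAA or a close variant, in the last exon. An internal coding exon is not the usual place for this, since a transcript cut there lacks a stop codon unless the cleavage lies beyond the exon. Poly(A) 3′-sequencing primes reverse transcription with oligo(dT), and this primer can also anneal to adenine-rich stretches inside a transcript. Lysine codons (AAA and AAG) and glutamate codons (GAA and GAG) make coding sequence locally rich in adenine. Each read starts next to the primed site and extends upstream. The 3′ end of a peak was read on the strand of its gene. Where the reads came from that strand, it lies next to the sequence that was primed. Whether the RNA ended at these positions or was primed inside a longer RNA was not tested.

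The sequences after some of the strongest peaks are shown to make their composition visible. Each line gives the last 10 bases of the peak and the 40 bases that follow, on the gene's strand of GRCh38, with adenine-rich stretches after the end in capitals. A stretch counted as A-rich when it held 6 A in a row or 7 A of 10, and capitals run from the first to the last A of such a stretch.
TOP1, chr20:41076263-41076312 (+): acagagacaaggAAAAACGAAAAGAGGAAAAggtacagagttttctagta
DYNC1I2, chr2:171690240-171690289 (+): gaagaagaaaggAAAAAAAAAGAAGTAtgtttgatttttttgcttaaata
PRRC2C, chr1:171532919-171532968 (+): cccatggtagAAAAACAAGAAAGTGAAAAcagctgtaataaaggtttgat
In each of these peaks the 3′ end lay within 2 bases of the start of the A-rich stretch.

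The 10 peaks with the highest −log10 q, a measure of how far the pileup of reads at the summit exceeds the local background, included those in TOP1, DYNC1I2, SEC62, ANKRD17, TBCA, PRRC2C, SMARCC1 and BAZ1B. TOP1 encodes DNA topoisomerase I, and its peak in exon 4 of 21 (chr20:41076080-41076272) had a pileup of 58 and a fold enrichment of 29.4, with a −log10 q of 74.3. The peak in exon 2 of DYNC1I2, a dynein intermediate chain, had a pileup of 54 and the highest fold enrichment of the group, 30.7. Both exons were short, at 124 and 117 bp, and their peaks ended 22 and 14 bases before the exon's 3′ boundary. The other peaks named here had pileups from 51 (TBCA, a tubulin folding cofactor) to 66 (PRRC2C). SEC62, which serves protein translocation into the endoplasmic reticulum, had 65. It lies under genes on both strands, so for its peak the annotation does not give a single strand either. BAZ1B, a subunit of chromatin remodelling complexes, differed in lying in a long exon of 1702 bp, where its peak still ended only 11 bases before the boundary.

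To determine whether these peaks were weaker than other poly(A) peaks, the share with a −log10 q of at least 5, the study's cut-off, was compared between classes. It was 80.8% (4600 of 5693, 79.8 to 81.8%), beside 73.5% over all peaks of the list. Intronic peaks of protein-coding genes reached 68.7% (61533 of 89596, odds ratio 1.92, Fisher's exact test, adjusted p = 3.80e-89), and peaks at transcript ends 93.5% (17064 of 18257, odds ratio 0.294, adjusted p = 2.94e-154). Coding peaks in first or last exons reached 85.2% (541 of 635, odds ratio 0.731, Fisher's exact test, adjusted p = 0.00729). The comparison with introns depended on the unit counted. With only the strongest peak of each gene and class, internal coding exons fell below introns (odds ratio 0.517, Fisher's exact test, adjusted p = 1.10e-25). The comparison with terminal coding exons was lost in that setting (Fisher's exact test, adjusted p = 0.487). Keeping the strongest peak favours a class with more peaks per gene, and the list held 89596 intronic peaks beside 5693 coding ones. The reversal against introns therefore does not show that coding peaks were weaker. The median pileup was 11 in internal coding exons (quartiles 8 and 17), 8 in introns, 18 at transcript ends and 14 in terminal coding exons. Peaks are not independent replicates of a condition, and all intervals and p-values over peaks cover counting error only.

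Within a gene, the coding peaks were usually lower than the peak at the gene's end. Of 5288 coding peaks in any gene with an end peak, 5282 lay in genes whose longest-span transcript has an internal coding exon. Over the 5288, the median pileup was 0.474 of that of the gene's strongest end peak (quartiles 0.316 and 0.739). The coding peak was the higher of the pair in 640 cases (12.1%). TOP1 was among these, with 58 against 30 at the end, and so were SMARCC1 (55 against 15), ANKRD17 (60 against 23) and PRRC2C (66 against 32). Where the end pileup was at least 20, the median ratio was 0.400, and the coding peak was higher in 204 of 3568 cases (5.72%). The study's methods name no setting for duplicate reads in peak calling. A pileup may therefore not scale with the amount of RNA, least of all at sharp, strong ends. The highest pileup at any transcript end of a protein-coding gene was 121, in the merged reads of 8 libraries. The ratios and the order of pileups given here were therefore not read as those of RNA amounts. SMARCC1 encodes a core subunit of the SWI/SNF remodelling complexes. In TBCA the order was the other way, with 51 in the exon and 62 at the end.

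Adenine was concentrated just after the 3′ end of the coding peaks. In the 5337 peaks with genes on 1 strand, 64.7% had an A at the first base after the end, beside 32.2% at the mirror-image position on the opposite strand. Over the first 10 bases after the end the mean was 58.6%, over the next 10 bases 43.6%, and at 31 to 50 bases 31.9%, near the 33.3% of the opposite strand. The last base of the peak itself was an A in 26.9%. Intronic peaks had more adenine and over a longer stretch, with 70.1% in the first 10 bases and 58.6% in the next 10. Transcript ends had 29.4% and 23.5%, below the 30.7% and 30.6% of their opposite strand.

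**Figure D1:**
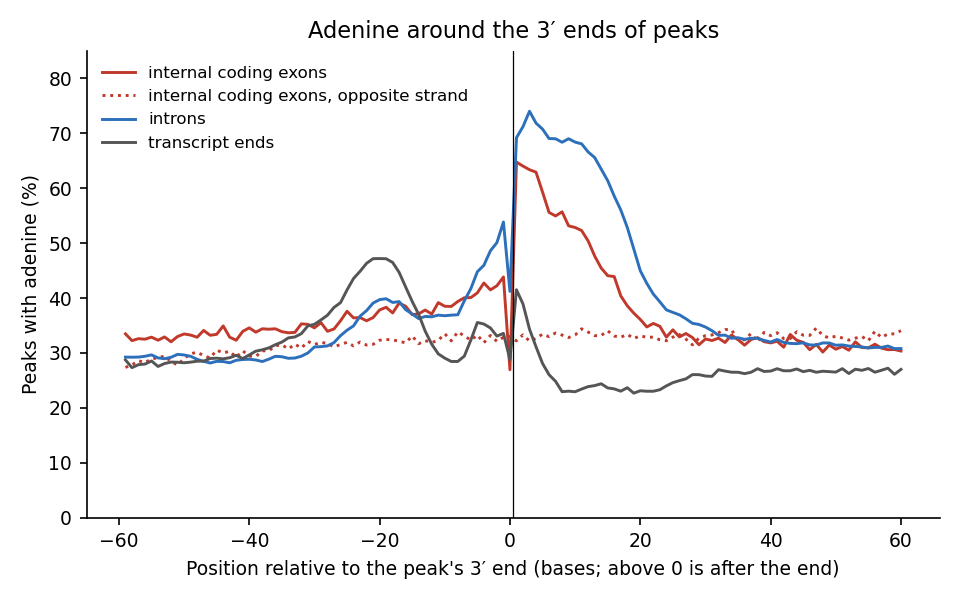
Share of peaks with adenine at each position from 59 bases before to 60 bases after the 3′ end, on the gene's strand (solid) and, for internal coding exons, on the opposite strand (dotted). Coding exon peaks rise to 64.7% at the first base after the end and fall back within about 20 bases, whereas transcript end peaks have their broad maximum before the end.

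A-rich sequence followed 3718 of the 5337 coding peaks within 50 bases (69.7%, 68.4 to 70.9%), against 37.3% in the mirror-image window of the opposite strand. That window lies outside the peak's 5′ edge, which was before the exon in 3139 of all 5693 peaks (55.1%), so it is not an even control. In 2311 peaks the gene's strand alone was A-rich, and in 583 the other strand alone (p = 9.19e-242 by the exact McNemar test). Over all peaks of genes on 1 strand the share was 67.6%, so the share itself was near that of the list as a whole. It was lower than in introns (80.3%, odds ratio 0.564, Fisher's exact test, adjusted p = 7.72e-71), a difference that vanished with the strongest peak per gene (odds ratio 0.989, adjusted p = 0.823). It was far higher than at transcript ends (20.1%, odds ratio 9.11, Fisher's exact test, p = 1e-300, the smallest value written) and higher than in terminal coding exons (62.7%, odds ratio 1.36, adjusted p = 0.00101). The stretch of 25 A with up to 3 mismatches that the study used to remove peaks was found after only 19 coding peaks (0.356%), beside 8.38% of intronic peaks. Counting that long stretch turned the comparison with transcript ends round, to an odds ratio of 0.426. The study's removal rule, which needs this stretch and no signal hexamer, applied to 13 of the 5693 peaks.

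Reading the sequence from the spliced transcript in place of the genome changed the picture for peaks close to an exon boundary. Among the 4597 peaks whose 3′ end lay within the exon, the end was a median of 46 bases before the boundary (quartiles 19 and 95). For the 287 peaks that ended 0 to 5 bases before it, the genome gave A-rich sequence in 26.8%, but the spliced transcript in 80.5% (95% Wilson interval 75.5 to 84.7%). For the 296 peaks at 6 to 10 bases the shares were 39.9% and 80.7%. Of these 583 peaks together, 304 were A-rich only in the transcript and 29 only in the genome (exact McNemar test, p = 5.76e-59). At 11 to 20 bases they were 76.0% and 84.1% (72 peaks A-rich only in the transcript and 20 only in the genome, p = 4.61e-08, exact McNemar test). At 21 to 30 bases the shares were 78.4% and 79.7%, and beyond 50 bases the 50 bases that follow lie in the exon, so both readings are equal by construction. By the spliced sequence, the share stayed between 77.3% and 84.1% in every bin of distance. The split at 10 bases was chosen after the values were seen.

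**Figure D2:**
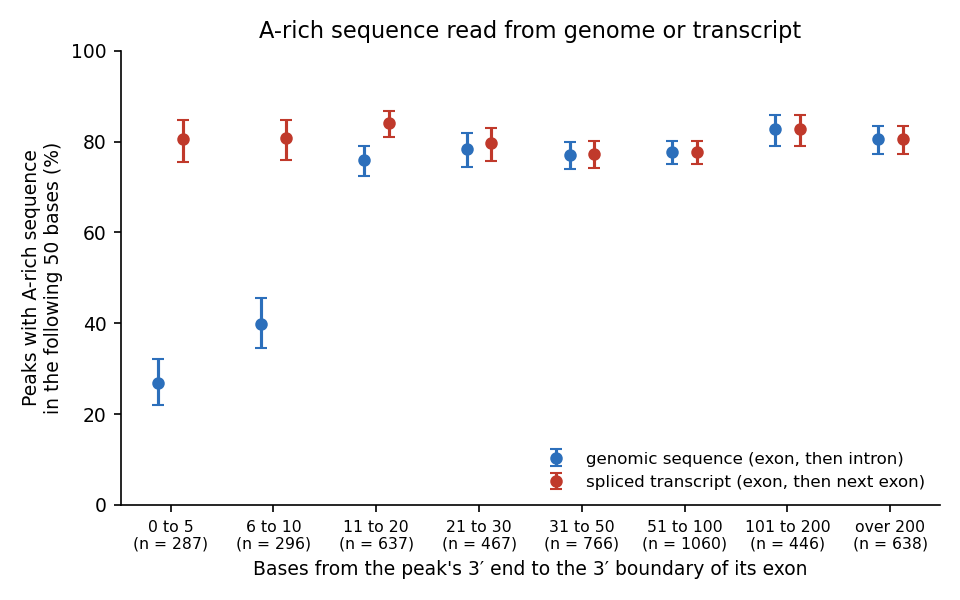
Share of coding peaks with A-rich sequence in the 50 bases after the 3′ end, read from the genome (blue) or from the spliced transcript (red), by the distance from the end to the exon's 3′ boundary, with 95% Wilson intervals. The readings part at 0 to 5 bases (26.8% and 80.5%) and 6 to 10 bases (39.9% and 80.7%), differ less at 11 to 20 bases (76.0% and 84.1%), and are close beyond 20 bases.

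The following pairs show what the genome and the transcript hold after the same peak, for peaks where only the transcript was A-rich. They are BLM exon 2 and BRCA2 exon 20, from the set of repair genes described further on, and strong ones in SMARCC1, CCDC34 and BRD7, which were picked after their values were seen. Each line again has 10 bases before the end and 40 after it, and the spliced line passes from the exon directly into the next one.
SMARCC1 genome, chr3:47635991-47636040 (−): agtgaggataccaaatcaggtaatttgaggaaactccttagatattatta
SMARCC1 transcript, chr3:47636022-47636040 joined to chr3:47635314-47635344 (−): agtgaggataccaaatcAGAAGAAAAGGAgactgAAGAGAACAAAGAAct
CCDC34 genome, chr11:27350294-27350343 (−): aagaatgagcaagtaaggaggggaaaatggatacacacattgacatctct
CCDC34 transcript, chr11:27350332-27350343 joined to chr11:27341513-27341550 (−): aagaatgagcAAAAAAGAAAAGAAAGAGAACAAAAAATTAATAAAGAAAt
BRD7 genome, chr16:50368060-50368109 (−): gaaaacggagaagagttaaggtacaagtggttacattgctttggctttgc
BRD7 transcript, chr16:50368090-50368109 joined to chr16:50354893-50354922 (−): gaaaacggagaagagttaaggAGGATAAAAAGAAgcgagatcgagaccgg
BLM genome, chr15:90747475-90747524 (+): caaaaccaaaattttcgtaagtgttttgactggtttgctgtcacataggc
BLM transcript, chr15:90747475-90747490 joined to chr15:90749367-90749400 (+): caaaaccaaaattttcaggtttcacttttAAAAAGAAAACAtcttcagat
BRCA2 genome, chr13:32371067-32371116 (+): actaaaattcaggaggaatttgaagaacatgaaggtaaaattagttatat
BRCA2 transcript, chr13:32371067-32371100 joined to chr13:32376670-32376685 (+): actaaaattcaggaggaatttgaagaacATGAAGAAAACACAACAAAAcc
Of these 5, CCDC34 had the longest such stretch, at the opening of its next exon. SMARCC1 had a pileup of 55, CCDC34 of 45, BRD7, a bromodomain gene, of 42, BRCA2 of 17 and BLM of 15.

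Runs of adenine in the spliced transcript were then taken as the starting point, in the 10868 protein-coding genes with an internal coding exon and an end peak. This measure was chosen after the values were seen. A run was counted as having a peak when a 3′ end lay between 20 bases before its start and 5 bases into it. Among runs inside an exon, 3.35% of those of 4 A had a peak (1997 of 59700), 5.97% of 5 A, 9.35% of 6 A, 12.7% of 7 A, 16.9% of 8 A (63 of 372) and 24.3% of 9 A or more (28 of 115, 17.4 to 32.9%). The Wilson intervals of neighbouring lengths did not overlap up to 7 A, and overlapped from 7 A on. As a control, runs of T were compared with the 5′ edges of the same peaks, which is the same arrangement on the other strand. Of 35826 runs of 4 T, 0.469% had an edge, and 0 of 90 runs of 8 T or more had one (upper Wilson limit 4.09%). Among runs of 6 or more, 10.8% of A runs (834 of 7722) and 0.242% of T runs (6 of 2480) had a peak (odds ratio 49.9, Fisher's exact test, p = 2.71e-95). The control is not fully even, because 4486 of the 3′ ends but only 2290 of the 5′ edges lay in an exon.

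Runs that cross an exon junction in the spliced transcript had peaks as well. The junction could lie anywhere inside the run, so a single exon may already have held 6 A or more of it. Of 206 runs of 6 A or more that cross an exon junction, 35 had a peak (17.0%, 12.5 to 22.7%), compared with 799 of 7516 inside an exon (10.6%, 9.95 to 11.3%; odds ratio 1.72, Fisher's exact test, p = 0.00602). Run length was not matched in that test. Among runs of exactly 6 A, the shares were 13.7% (18 of 131, 8.87 to 20.7%) across a junction and 9.35% (8.61 to 10.1%) inside an exon. For 7 A they were 16.1% (8.69 to 27.8%) and 12.7% (11.1 to 14.5%), and the intervals overlapped at both lengths. For 8 A or more the counts were small, with 8 of 19 across a junction and 91 of 487 inside an exon.

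**Figure D3:**
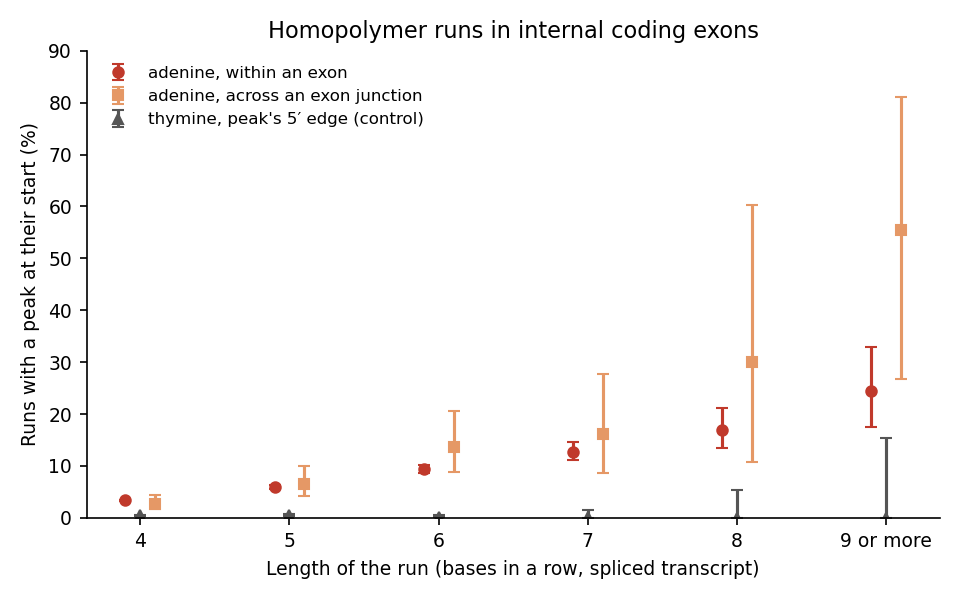
Share of homopolymer runs in internal coding exons with a peak, by run length, for adenine within an exon (red), adenine across a junction (orange) and thymine with the peak's 5′ edge as control (grey), with 95% Wilson intervals. The adenine share rises from 3.35% at 4 to 24.3% at 9 or more, and the thymine share stays under 0.5%.

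The reading frame gives the amino acids behind the adenine. In 2148 coding peaks the 50 bases after the end lay in the same coding exon, and 16.9% of their in-frame codons encoded lysine, against 7.47% in the whole coding sequence of the same transcripts. AAA rose from 4.09% to 10.4%, a ratio of 2.53, and AAG from 3.38% to 6.54%. Glutamate codons were also more frequent, GAA with 9.72% against 4.96% and GAG with 5.01% against 3.67%. So were other codons with A, such as AGA (2.93% against 1.72%), AAT (3.56% against 2.48%) and ATA (1.52% against 1.09%). ACA (1.76% against 1.88%) and AAC (1.47% against 1.60%) were not. Other reading frames were not compared, so the codon shares are not separate from the adenine content. With 1 peak per gene, the lysine share was above the gene's own share in 1214 of 1503 genes and below it in 289 (exact sign test, p = 8.24e-135), with a median difference of 7.55 percentage points. Genes with a coding peak had a median lysine share of 7.06% over their whole coding sequence, beside 5.23% in genes with an end peak but no coding peak.

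To determine how many of the peaks carry the hexamer of a poly(A) site, the 12 hexamers of the study were searched in the 100 bases before the 3′ end, on both strands of the genome. They are AATAAA, every form of it with another base at position 1, 2 or 5, such as ATTAAA and GATAAA, and also the forms AAGAAA and AATGAA. The spliced transcript was not searched. In 3139 of all 5693 peaks (55.1%) the 5′ edge lay before the exon. The mirror-image window starts at that edge, and the window before the end can reach it, so hexamers may lie in sequence that splicing removes. At least 1 hexamer was present at 3172 of the 5337 peaks (59.4%, 58.1 to 60.7%) and in 46.2% of the mirror-image windows (p = 6.95e-46, exact McNemar test). Over all peaks of genes on 1 strand the share was 58.3%. Transcript ends had 87.0% (odds ratio 0.219, Fisher's exact test, p = 1e-300, the smallest value written), terminal coding exons 63.3% (odds ratio 0.850, adjusted p = 0.0834) and introns 50.7% (odds ratio 1.42, adjusted p = 4.32e-35). The comparison with introns turned round when AATAAA and ATTAAA alone were counted, which were less frequent at coding than at intronic peaks (odds ratio 0.630, Fisher's exact test, adjusted p = 3.39e-41). With a window of 40 bases it was lost (odds ratio 0.971, Fisher's exact test, adjusted p = 0.323).

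The hexamers differed between peaks that ended within the exon and those that did not. Of the 5337 peaks, 740 (13.9%, 13.0 to 14.8%) ended past the exon's 3′ boundary, 701 of them in the following intron and 39 in the next exon. Among the 4597 that ended within the exon, AATAAA or ATTAAA was present at 14.9%, slightly fewer than the 16.5% of the other strand (p = 0.0330, exact McNemar test). The other strand is not an even control here, because its window starts at the peak's 5′ edge, often before the exon. A lack of excess therefore cannot be read from this pair of shares. The excess over the opposite strand came from other hexamers. AAGAAA was present at 26.5% against 12.5%, AATGAA at 10.4% against 5.98% and GATAAA at 6.35% against 3.81%. AAGAAA is itself a stretch rich in adenine, and so overlaps in composition with the sequence after the end.

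Peaks that ended in the following intron more often had a main hexamer. AATAAA or ATTAAA preceded 325 of the 701 (46.4%), compared with 17.3% for the other strand (p = 1.44e-32, exact McNemar test). This share was higher than in peaks ending within the exon (odds ratio 4.92, Fisher's exact test, adjusted p = 2.17e-71), and A-rich sequence was less frequent (50.1% against 72.7%, odds ratio 0.376, adjusted p = 1.69e-31). Among the 350 with no A-rich sequence after the end, 65.7% had AATAAA or ATTAAA, compared with 16.9% for the other strand (p = 4.39e-41, exact McNemar test). Among the 351 with A-rich sequence the shares were 27.1% and 17.7%. The hexamer started 20 to 29 bases before the end in 22.7% of the 701 peaks and 10 to 19 bases before it in 14.0%, against 2.28% and 3.14% on the opposite strand. At transcript ends the same bins held 42.6% and 10.2%, and in peaks ending within the exon 2.89% and 2.26%. Among the 852 exon-ending peaks with no A-rich sequence by either reading, the hexamer started 20 to 29 bases before the end in 7.63%, beside 3.87% for the other strand. The intron-ending peaks were less often strong, with 71.5% at a −log10 q of at least 5 against 82.3% (odds ratio 0.539, Fisher's exact test, adjusted p = 8.84e-11).

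**Figure D4:**
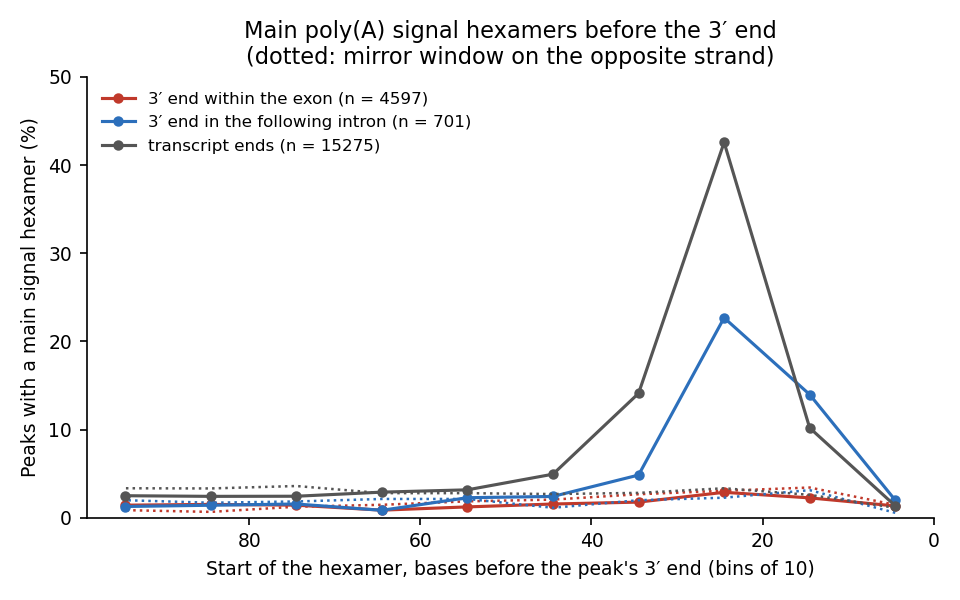
Share of peaks in which AATAAA or ATTAAA starts in each bin of 10 bases before the 3′ end, for coding peaks ending within the exon (red), coding peaks ending in the following intron (blue) and transcript end peaks (grey); dotted lines are the opposite strand. The intron-ending peaks have a maximum of 22.7% at 20 to 29 bases, in the same bin as the 42.6% of transcript ends, and the exon-ending peaks are at 2.89% there, beside 3.07% for the other strand. For coding peaks the opposite-strand window often starts before the exon, so it is not an even control.

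Of the intron-ending peaks with AATAAA or ATTAAA and no A-rich sequence there were 230, and 149 of these also lay outside the end windows of all annotated transcripts. Strong ones were in SLTM, SUCO, HDGFL3 and STAMBPL1, picked after their values were seen. SLTM encodes a nuclear RNA-binding protein, and its peak (chr15:58913428-58913755) had a pileup of 36 and ended 71 bases into the intron after exon 4 of 21. SUCO had a pileup of 37 and an end 107 bases into the intron after exon 7 of 23. HDGFL3 had 29 with an end 64 bases into the intron. Sequences are shown for the first 3 of them with the last 50 bases of the peak and 20 bases after it, and AATAAA or ATTAAA in capitals.
SLTM, chr15:58913408-58913477 (−): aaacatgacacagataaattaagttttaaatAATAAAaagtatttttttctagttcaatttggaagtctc
SUCO, chr1:172569200-172569269 (+): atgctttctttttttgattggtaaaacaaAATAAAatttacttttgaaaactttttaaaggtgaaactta
HDGFL3, chr15:83157331-83157400 (−): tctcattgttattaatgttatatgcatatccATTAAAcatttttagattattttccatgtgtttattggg
In these 3 the 20 bases after the end held no run of 6 A, in contrast to the line of DYNC1I2 above.

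Among the strongest peaks that ended past the exon were those in SSU72 and RBM25. SSU72 is a phosphatase of the RNA polymerase II C-terminal domain, and its peak (pileup 51, −log10 q 43.6) ended 123 bases past exon 2 with neither a hexamer nor A-rich sequence. RBM25, a splicing factor, had a pileup of 52, and its peak ended in the next exon, 175 genomic bases past exon 11, and was followed by A-rich sequence. Among all peaks with a hexamer and no A-rich sequence in the genome, the strongest were in SMARCC1, RBM28 and CCAR1, but in SMARCC1 and CCAR1 the spliced transcript was A-rich. RBM28, a nucleolar RNA-binding protein, had a pileup of 63 with no A-rich sequence by either reading. The strongest peaks with A-rich sequence and no hexamer were in BAZ1B, in EHMT2 (pileup 50), a histone H3 lysine methyltransferase, and in HSP90B1 (pileup 53), the endoplasmic reticulum chaperone. With neither feature by either reading there were 447 peaks (8.38%, 7.66 to 9.15%). SSU72 was among them. Of those that ended within the exon, the strongest, named after their values were seen, were in SET with a pileup of 69, APLP2 with 33 and PSMD2 with 41.

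Peaks were placed over exons of all lengths. Per 100 kb of internal coding exon in genes with an end peak, exons under 200 bp held 31.4 peaks (exact Poisson interval 30.3 to 32.4), exons from 200 bp to under 1 kb 27.4 (25.8 to 29.0) and exons of 1 kb or more 26.6 (24.0 to 29.4). The density in the longest exons was 0.848 of that in the shortest (0.762 to 0.941). A peak was nevertheless present in 253 of 819 exons of 1 kb or more (30.9%), compared with 3.58% of exons under 200 bp. The longest exon with a peak had 18173 bp, and was the last exon of a transcript other than the longest-span one. Among exons that were internal in the transcript that held the peak, the longest were in STARD9 (10227 bp), MAP1A (8185 bp), SPEN (8176 bp), TEX15 (7313 bp) and MKI67 (6845 bp). SPEN, a nuclear corepressor, held 4 peaks in this exon with pileups from 11 to 23. MAP1A, a neuronal microtubule-associated protein, held 3 with pileups of 40, 9 and 18, and none of the 3 was followed by A-rich sequence. MKI67, which encodes the proliferation antigen Ki-67, held 2 with pileups of 18 and 32, TEX15 held 2 with 11 and 14, and STARD9 held 1 with 6.

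Along the coding sequence the peaks became less frequent toward the 3′ end. The internal coding bases of each gene were divided into 10 equal parts, and bases within the end windows were left out of the denominator. The first part held 719 peaks (43.6 per 100 kb, exact Poisson interval 40.5 to 46.9), the fifth 490 (29.7, 27.2 to 32.5) and the last 303 (interval 16.9 to 21.2 per 100 kb). Runs of 6 A or more moved in the same direction but less, from 48.5 per 100 kb in the first part to 41.8 in the last. There were 89.9 peaks per 100 runs in the first part and 45.4 in the last. This division was chosen after the values were seen.

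At least 1 coding peak was found in 2901 of the 10868 genes with an end peak and an internal coding exon (26.7%). Most of the 3166 host genes had a single peak (1945), while 18 genes had 10 or more. Genes with a peak had more internal coding sequence, with a median of 1735 bp against 901 bp in genes without one. The share of genes with a peak also went with the pileup at the gene's end, from 9.82% of 1375 genes with an end pileup up to 10, through 24.7% at 11 to 20, to 31.7% at 21 to 40 and 32.6% at 41 to 80, with 5 of 20 genes above that. End pileup, internal coding length and lysine content thus differ between genes with and without peaks, and their separate parts were not tested. End pileup was not read as the amount of a gene's RNA.

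The gene with the most peaks was SYNE2, a nesprin that links the nucleus to the cytoskeleton, with 19 peaks over 20450 bp and pileups from 4 to 18. DST, a cytoskeletal linker, had 15 over 23013 bp, and CEP350, a centrosomal protein, had 15 over 9189 bp. CENPE, the kinetochore kinesin, had 14 peaks over 7592 bp. All 14 were followed by A-rich sequence and preceded by a hexamer, and 11.9% of the codons of CENPE encode lysine. AKAP9, a centrosome and Golgi scaffold, and CEP290, a centrosome and cilium protein, also had 14 each. ATRX, a chromatin remodeller, had 14 over 7180 bp. MACF1 followed with 13, BDP1, a subunit of the RNA polymerase III factor TFIIIB, with 12, and CENPF, a kinetochore protein, with 11 and pileups from 17 to 48. In the 10 genes, between 8 of 13 (MACF1) and all peaks (DST, CENPE and AKAP9) were followed by A-rich sequence by either reading.

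Gene lists were described by the share of genes with a coding peak, beside the 26.7% of all genes. No test was run on the lists, which also differ in length and lysine content. The lists were chosen with earlier results of these data known. Their shares and order are therefore descriptive, and the intervals cover counting error only. The list of centrosome, kinetochore and golgin coiled-coil genes had the highest share, 66 of 67 genes (98.5%, 92.0 to 99.7%), with 109 peaks per 100 kb against 31.3 over all genes. Its genes had a median of 3968 bp of internal coding sequence and a median lysine share of 9.30%, compared with 1083 bp and 5.77% over all genes. Chromatin remodellers and histone modifiers followed with 68 of 84 genes (81.0%, 71.3 to 87.9%) and 58.8 peaks per 100 kb. Besides ATRX, SMARCA1, an ISWI-type remodeller, had 8 peaks, and PBRM1, a SWI/SNF subunit, and CHD2 had 7 each.

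**Figure D5:**
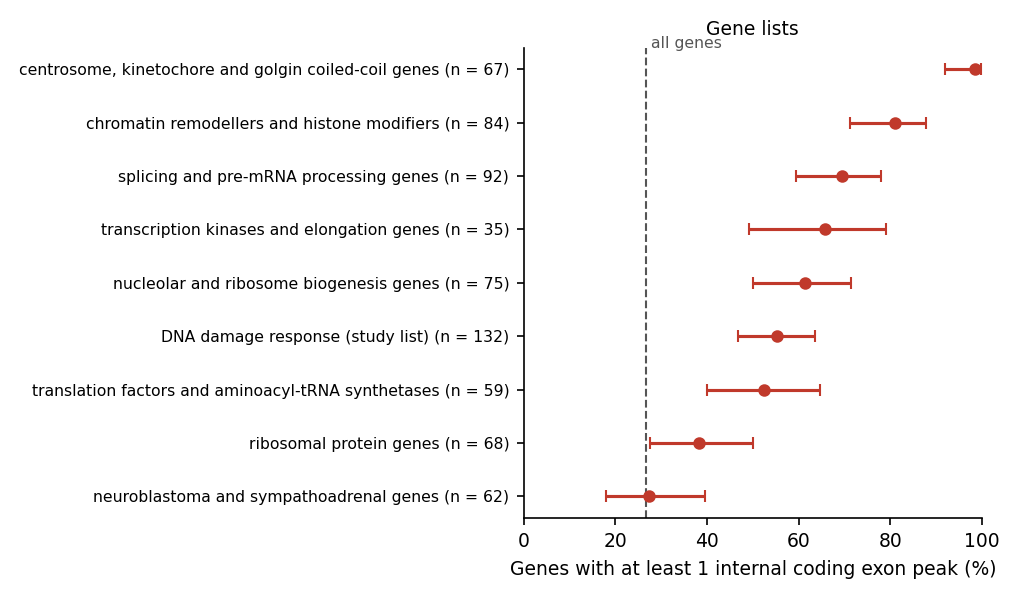
Share of genes with at least 1 internal coding exon peak in each gene list (points, with 95% Wilson intervals; n is the number of genes with an end peak), beside the 26.7% of all 10868 genes (dashed line). Coiled-coil genes (98.5%) are at the top and neuroblastoma and sympathoadrenal genes (27.4%) are at the level of all genes. The lists were chosen with earlier results of these data known.

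Genes of RNA processing and of ribosome assembly had intermediate shares. Among splicing and pre-mRNA processing genes, 64 of 92 had a peak (69.6%), with 6 in the helicase gene DDX46, 6 in U2SURP and 5 each in SON and RBM25. Among nucleolar and ribosome biogenesis genes, 46 of 75 had a peak (61.3%), led by UTP20 with 7 and ESF1 with 5, and this list had a median lysine share of 10.0%. Translation factors and aminoacyl-tRNA synthetases had 31 of 59 (52.5%), with 7 peaks in EIF3A, the largest subunit of eIF3, and 6 in LARS1, the leucyl-tRNA synthetase. Ribosomal protein genes had only 26 of 68 (38.2%). Their internal coding sequence is short, at a median of 387.5 bp, and per 100 kb they held 99.9 peaks, close to the coiled-coil genes. RPL22 and RPL6 had 2 peaks each, and RPS18 and RPS7 1 each, with a pileup of 34 in RPS18 and 31 in RPS7. Ribosomal protein genes have many processed pseudogenes, and the reads were kept when they mapped to several places, so their counts are uncertain.

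Transcription kinases and elongation genes had a peak in 23 of 35 cases (65.7%, 49.2 to 79.2%). CTR9 and RTF1, elongation factors of the Paf1 complex or acting with it, had 4 peaks each, MED13, a subunit of the Mediator kinase module, had 4, and LEO1 had 3. CDK12 and CDK13, the targets of THZ531, had 1 each. The CDK12 peak (chr17:39470934-39471192) lay in exon 2 of 14 with a pileup of 9, against 29 at the gene's end, and had neither a hexamer nor A-rich sequence. The CDK13 peak lay in exon 3 of 14 with a pileup of 8, against 39 at the end, and had both. Neuroblastoma and sympathoadrenal genes were near the level of all genes, with 17 of 62 (27.4%, 17.9 to 39.6%). KIF5B, a kinesin heavy chain gene, had 5 peaks, CHGB, a secretory granule protein, had 4, and MAP1B and MAP1A had 3 each. MYCN (790 bp of internal coding sequence) and ALK (3497 bp) had none, although their end peaks had pileups of 96 and 21.

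The study's list of DNA damage response genes had a peak in 73 of 132 genes (55.3%, 46.8 to 63.5%). They held 54.0 peaks per 100 kb, with a median of 1467 bp of internal coding sequence and a median lysine share of 6.59%. PRKDC, the catalytic subunit of DNA-PK, had 9 peaks, RAD50, an ATPase of the MRN complex, had 8, RFC1, the large subunit of the clamp loader, had 7, and PMS1 had 5. In RFC1 all 7 were followed by A-rich sequence, and 13.9% of its codons encode lysine.

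In BRCA1, BRCA2, ATM, ATR, BARD1, BLM and FANCD2, 12 of 17 peaks (70.6%) were followed by A-rich sequence in the genome. The share was 69.7% over the 5337 coding peaks with genes on 1 strand. The sets are not fully alike, because the 12 include ATM exon 49 and FANCD2 exon 34, which have genes on both strands. Sequences of 7 of them are shown in the same form as those of TOP1, 6 with an A-rich stretch and 1 without.
BRCA1 exon 8, chr17:43093541-43093590 (−): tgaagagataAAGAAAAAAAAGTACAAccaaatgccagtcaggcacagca
BRCA1 exon 8, chr17:43093310-43093359 (−): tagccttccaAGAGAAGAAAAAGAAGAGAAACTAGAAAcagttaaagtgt
BRCA2 exon 10, chr13:32333268-32333317 (+): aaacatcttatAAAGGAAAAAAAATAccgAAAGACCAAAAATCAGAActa
BRCA2 exon 22, chr13:32379487-32379536 (+): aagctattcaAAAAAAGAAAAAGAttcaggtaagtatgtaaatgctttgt
BARD1 exon 4, chr2:214781217-214781266 (−): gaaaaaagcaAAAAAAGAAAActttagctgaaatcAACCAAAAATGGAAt
BLM exon 7, chr15:90760898-90760947 (+): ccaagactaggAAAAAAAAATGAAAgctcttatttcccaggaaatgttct
ATM exon 11, chr11:108251898-108251947 (+): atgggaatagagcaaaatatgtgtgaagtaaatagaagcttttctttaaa
Of the lines shown, only ATM exon 11 has no A-rich stretch after its peak. Among the 17, the peaks in BRCA2 exon 20, BLM exons 2 and 15 and ATR exon 15 also had none in the genome. ATM exon 11 and ATR exon 15 had none in the spliced transcript either.

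BRCA1 had both of its peaks in the 3426 bp exon 8 of 21, as counted along the transcript used here. Their pileups were 20 and 11, against 26 at the gene's end. Both were followed by A-rich sequence and had no hexamer, and 4 and 3 of the 16 codons after them encoded lysine. BRCA2 had 4 peaks, in exons 10, 11, 20 and 22 of 27, with pileups of 13, 13, 17 and 12 against 18 at the end. The exon 11 peak lay 2904 bases before the 3′ boundary of a 4932 bp exon and was followed by A-rich sequence, and it was the only peak of the 4 with AATAAA or ATTAAA. BLM had 4 peaks as well, in exons 2, 7, 15 and 19 of 22, with pileups of 15, 11, 7 and 10 against 34 at the end. Those in exons 2 and 15 were A-rich only in the spliced transcript. BARD1 had 1 peak, in exon 4, with a pileup of 11 against 14.

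FANCD2 had 2 peaks (pileups 19 and 8, 33 at the end), both 13 bases before an exon boundary and both A-rich, the second with genes on both strands. ATM had 2, with pileups of 8 in exon 11 and 14 in exon 49, against 17 at the end, and the exon 49 peak also had genes on both strands. ATR had 2 with a pileup of 6 each, against 24, of which the exon 10 peak was followed by A-rich sequence and the exon 15 peak, which had AATAAA or ATTAAA, was not. PALB2 had none in 3302 bp of internal coding sequence. Across the genes chosen for description, all 19 coding peaks had a pileup of 20 or less, and each was below its gene's strongest end peak.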

How the data were processed

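Poly(A) 3′-sequencing (QuantSeq REV) was done on Kelly and Kelly E9R cells with DMSO or THZ531, in 4 groups of 2 libraries. The authors trimmed reads with BBDuk, mapped them with STAR 2.5.1b to GRCh38 with up to 20 places per read, merged all libraries and called peaks with MACS2 2.1.1. The deposited list gives, per peak, a fold enrichment at the summit, a −log10 p and −log10 q made by MACS2, the summit offset, and a score that is 10 times the −log10 q. No library has values of its own, so no group was compared and the precision is that of counts of peaks.

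Summits were placed on GENCODE 44 annotation of GRCh38. The pileup and local background were recovered from the fold and the −log10 p with the formulas of MACS2. The 3′ end was read on the strand of the gene, for peaks with genes on 1 strand, because the list itself gives no strand. Peak classes were compared with Fisher's exact test with Benjamini-Hochberg adjustment over 3 classes, strands with the exact McNemar test, and lysine shares with an exact sign test over genes, all two-sided. Intervals are 95% Wilson or exact Poisson. P-values under 1e-300 were written as 1e-300. Python 3.11.15, numpy 2.4.6, pandas 2.3.3 and scipy 1.17.1 were used, and the functions were tested on simulated data.

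Named were the 10 strongest peaks, the 10 genes with most peaks, up to 4 genes per list with most peaks, every peak of 14 chosen genes, the peaks of the 5 longest exons, and the 3 strongest peaks with a hexamer only, with A-rich sequence only, and ending past the exon. Some genes under this rule are not reported here. Others are said to be picked after their values were seen. The members and lists were chosen with earlier results of these data known. No list was tested, and sequences were read from GRCh38.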

Additional observations from a re-analysis of the deposited data

How the results depend on the processing

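Of 70 alternative values, 54 kept their direction and side of the threshold, stayed within the counting interval or, for counts, stayed within 1.5 times the reported count. The count of peaks, 5693 as reported, was lowest with the ends of all annotated transcripts (3977), and that of genes, 2901 as reported, was lowest there too (2228). The remaining 16 follow, as odds ratios for internal coding exons unless stated, and their causes were not tested. With the strongest peak per gene, the share at a −log10 q of at least 5 was reversed against introns (0.517) and lost against terminal coding exons (0.908), and the A-rich share was lost against introns (0.989). The comparison of strength with terminal coding exons was also lost with a threshold of 10 (0.918) and with the ends of all annotated transcripts (0.795). Counting AATAAA and ATTAAA only reversed the hexamer comparison with introns (0.630) and brought that with terminal coding exons past the threshold (0.694). A window of 40 bp gave 0.971 and 0.741 for the same pair. The long stretch of 25 A reversed the A-rich comparison with transcript ends (0.426) and lost that with terminal coding exons (4.06, with 0.5 added to each cell). The share of peaks ending past the exon, 13.9% as reported, was 12.4% at a −log10 q of at least 5, 15.01% with the strongest peak per gene and 11.7% with the summit plus 50 bp as the 3′ end. The density in the longest over that in the shortest exons, 0.848 as reported, was 0.756 with the ends of all annotated transcripts and 0.607 with the strongest peak per gene. No paired analysis was possible because the peaks were called on merged reads and carry no value per library, and for the same reason leaving out each replicate in turn was not run.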
